A study of Mus musculus with 4 samples.

Results

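Normal young lens was described here from the 2 control libraries of an RNA sequencing study of mouse lenses aged 10 to 12 days. Normal here means the control group of the study, and no other mouse strain was compared. The members were the genes whose FPKM (fragments per kilobase of gene, scaled to sequencing depth) was above 0 in both control libraries, and 17346 of the 56748 genes in the deposited table met this rule. The whole series holds 4 libraries. The labels give both control libraries the genotype *Fsp1-cre;Pdgfrb*+/+, whereas the methods of the study describe control pools that also included *Pdgfrb*+/+ and *Pdgfrb*+/D849V mice without the cre transgene. All mice were on the FVB/N background, and the line also carried a *Rosa-LSL-tdTomato* reporter. The *Fsp1* promoter (gene symbol *S100a4*) that drives the cre is not restricted to the lens. Each library came from whole lenses pooled from several mice, so the spread between them is a spread between pools. The study gives an n for each group, but how it was divided over the pools is not given in the sources used here. With 1 group and 2 libraries no test between conditions was made, and values are given for library 1 and then library 2.

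The lens is built from a single anterior sheet of epithelial cells and a mass of elongated fiber cells, all inside a basement membrane called the capsule. Epithelial cells at the equator divide, leave the cell cycle and become fibers, which fill with crystallins, the soluble proteins that refract light, and then lose their nuclei and other organelles. The lens has no blood vessels of its own once the fetal vessels around it have regressed, which in mice happens after birth.

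The marker genes of the label were all present in both libraries. *Cryaa*, which encodes the chaperone αA-crystallin, was at 66165 and 73682 FPKM and was the second gene by mean FPKM. *Mip*, the water channel and adhesion protein of fiber membranes, was at 3768 and 3906 FPKM (rank 18), and *Bfsp1*, which encodes the filament protein filensin, was at 2911 and 3215 FPKM (rank 19). *Foxe3*, a forkhead factor of the lens epithelium, was at 109 and 119 FPKM (rank 159), and *Pax6*, the paired-box regulator of eye development, was at 7.18 and 6.62 FPKM (rank 2209). By FPKM the fiber markers therefore ranked far above the epithelial ones. All 5 marker genes lay above the median of 0.911 FPKM over all genes detected. FPKM divides by the deposited gene length, so these ranks are not ranks by reads. *Foxe3* (867 bp) had 1846 and 1905 reads and *Pax6* (11694 bp) had 1633 and 1426, beside 157107 and 154392 for *Mip*.

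RNA abundance was concentrated in very few genes. The ratio of the highest mean FPKM to the median over detected genes was 88930. Only 28 genes reached a mean of 1000 FPKM and 180 reached 100 FPKM, whereas 8351 reached 1 FPKM. When each FPKM was turned back into the reads behind it, 10 genes in library 1 and 9 genes in library 2 made up 50% of all reads. A share of 75% took 117 and 91 genes, and 90% of the reads took 1845 and 1674 genes. Without crystallins and 18S ribosomal RNA the remaining RNA was spread much more evenly, since 503 and 480 genes then made up 50% of the reads and the top gene held 2.39% and 2.42% of them. The plot of abundance against rank shows this as a plateau of crystallins followed by a steep drop.

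**Figure D1:**
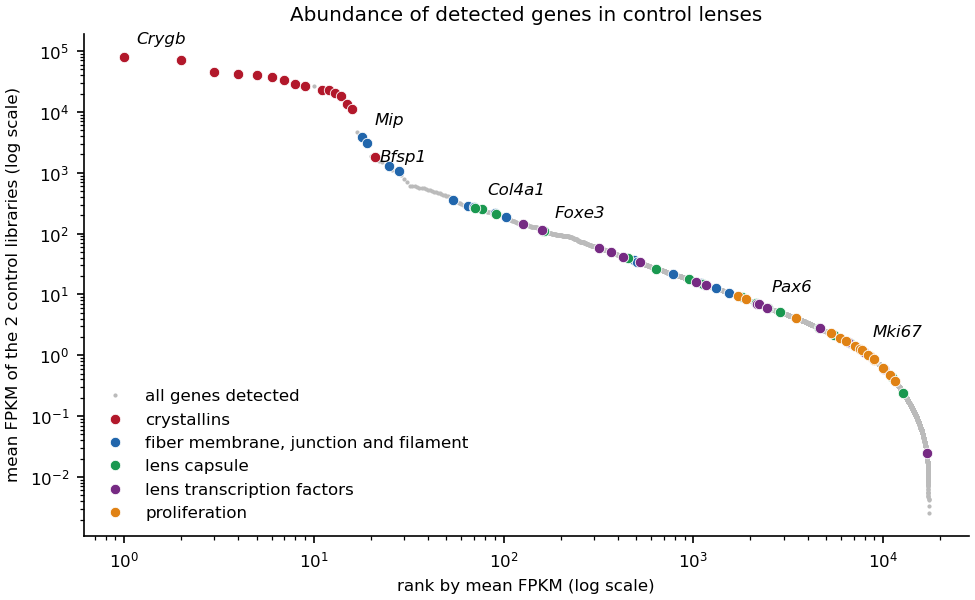
Mean FPKM of the 2 control libraries against rank for the 17346 genes detected in both, both axes on a log scale, with lens gene lists in color. Crystallins (red) fill 15 of the first 16 ranks above 10000 FPKM, fiber genes (blue) follow from rank 18, and proliferation genes (orange) lie between 0.381 and 9.50 FPKM.

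Protein-coding genes made up 13583 of the genes detected, which is 61.8% of the protein-coding genes annotated, and they held 92.8% and 94.2% of the reads. Long non-coding RNA genes were the next most numerous class, with 1933 of 11288 detected, yet they held 0.672% and 0.592% of the reads and their median level was 0.208 FPKM beside 1.30 FPKM for protein-coding genes. Processed pseudogenes (1004 of 9999 detected) held 0.702% and 0.701% of the reads. On the FPKM scale the same pseudogenes made up 1.98% and 1.91%, and their annotated median length was 526 bp beside 3504 bp for protein-coding genes. Genes of the class labelled TEC, for gene models that await experimental evidence, numbered 482 and held 0.0226% and 0.0227% of the reads. Ribosomal RNA was represented almost entirely by the 18S gene *Rn18s-rs5*, which held 5.61% of the reads in library 1 (95% Wilson interval 5.60 to 5.62) and 4.34% in library 2 (4.33 to 4.34), intervals that cover counting error only.

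Crystallins led every other class. All 16 crystallin genes on the α, β and γ lists were detected, and 15 of them lay within the 16 highest ranks, between 11269 and 81041 mean FPKM. The 2 α-crystallins *Cryaa* and *Cryab* held 17.8% and 18.6% of all reads, the 6 β-crystallins held 19.7% and 21.3%, and the 8 γ-crystallins held 21.5% and 21.6%. The 3 classes thus had like shares, although they differ in gene number. *Crygb* was the highest gene by FPKM in both libraries, at 79415 and 82668 FPKM. *Cryaa*, whose deposited gene length is greater (2076 bp beside 634 bp), had the most reads (2671026 and 2819717). Among the γ-crystallins *Crygc* followed at 44824 and 44805 FPKM, *Crygd* at 36334 and 45149.6, *Crygs* at 32182 and 35741, *Cryge* at 32196 and 25488, *Crygf* at 23818 and 29703 and *Cryga* at 19774 and 20771. The γ-crystallins are small monomeric proteins.

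Among the β-crystallins, which form dimers and larger oligomers, *Cryba1* was highest at 36302 and 46718 FPKM and *Crybb1* next at 35879.5 and 39829 FPKM. *Cryba4* followed at 21553 and 23665 FPKM, *Crybb2* at 17929 and 19066, *Cryba2* at 13100.5 and 14211 and *Crybb3* at 10809 and 11729. *Cryab*, which encodes αB-crystallin, the partner of αA-crystallin in the chaperone complex, was at 22095 and 23956 FPKM. *Crygn* stood apart from the other crystallins at 1773 and 1834 FPKM. The order of the leading genes was only partly fixed by 2 libraries, because 8 of the 15 neighbor pairs among the first 16 ranks had overlapping ranges, and 9 of the 15 kept the same order in both libraries. *Crygb* above *Cryaa* and *Cryaa* above *Crygc* did not overlap, whereas *Crygc*, *Cryba1* and *Crygd* did.

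**Figure D2:**
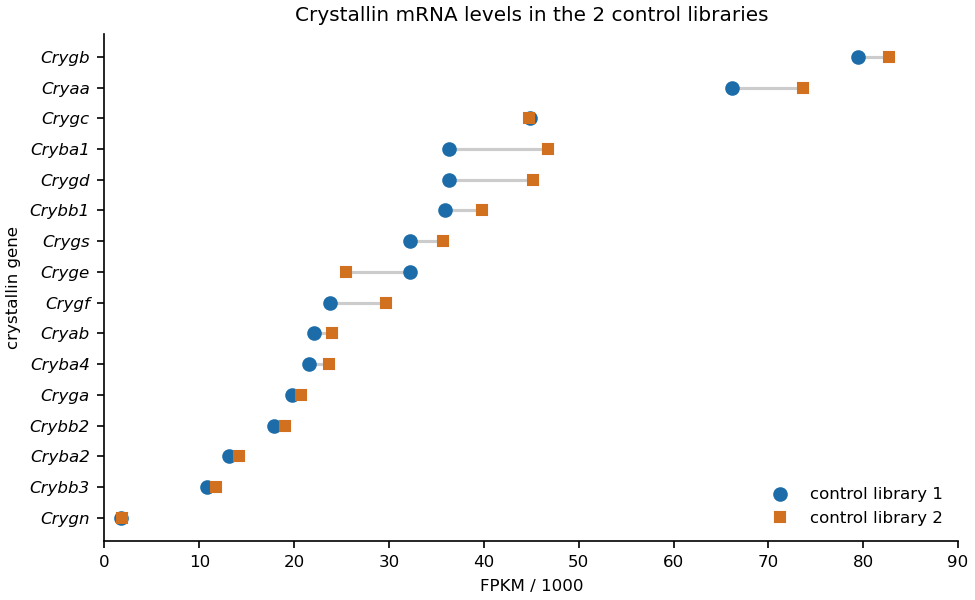
FPKM (in units of 1000, linear axis from 0) of the 16 crystallin genes in control library 1 (circles) and control library 2 (squares), ordered by their mean. *Cryge* is the gene that lies clearly lower in library 2, whereas *Cryba1*, *Crygd* and *Crygf* lie higher in it, and the other genes differ by at most 1.11-fold.

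Genes named after crystallins but without a lens structural role were far less abundant. Of the 7 genes on this list, which encode enzymes and βγ-domain proteins, 5 were detected, with a list median of 0.216 FPKM. *Cryzl1* and *Cryz*, members of the quinone oxidoreductase family, were at 3.47 and 3.52 FPKM and at 3.31 and 3.31 FPKM. *Crybg1* was at 0.349 and 0.348 FPKM, *Crybg3* at 0.223 and 0.209 and *Cryl1* at 0.0708 and 0.125. *Crym*, the thyroid hormone-binding µ-crystallin, had 4 and 0 reads, and *Crybg2* had no read in either library.

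The promoters of the 6 clustered γ-crystallin genes and of *Cryaa* are shown because their start regions share short runs. They are not simply the highest genes. *Cryba1*, *Crybb1* and *Crygs*, at ranks 4, 6 and 7, have no TATATA in their windows of 300 bases and are not shown. Each sequence covers 100 bases before and 10 bases after the RefSeq transcription start in GRCm38.p6, read 5′ to 3′ on the gene's strand, with the runs TATATA and TTTGTG in capitals. Both runs were chosen after the sequences were seen.
*Cryga*, chr1:65103354-65103463, strand minus: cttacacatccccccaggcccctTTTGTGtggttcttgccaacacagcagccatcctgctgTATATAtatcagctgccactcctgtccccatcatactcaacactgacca
*Crygb*, chr1:65082281-65082390, strand minus: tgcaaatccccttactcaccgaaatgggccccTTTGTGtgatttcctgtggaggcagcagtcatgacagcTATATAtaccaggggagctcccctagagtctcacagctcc
*Crygc*, chr1:65073523-65073632, strand minus: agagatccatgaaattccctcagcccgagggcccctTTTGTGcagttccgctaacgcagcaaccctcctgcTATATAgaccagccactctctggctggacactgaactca
*Crygd*, chr1:65063431-65063540, strand minus: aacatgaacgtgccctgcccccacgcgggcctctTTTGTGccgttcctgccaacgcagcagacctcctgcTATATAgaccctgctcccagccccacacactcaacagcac
*Cryge*, chr1:65051154-65051263, strand minus: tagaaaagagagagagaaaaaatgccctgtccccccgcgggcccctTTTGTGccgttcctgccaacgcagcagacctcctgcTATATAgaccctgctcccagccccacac
*Crygf*, chr1:65926422-65926531, strand plus: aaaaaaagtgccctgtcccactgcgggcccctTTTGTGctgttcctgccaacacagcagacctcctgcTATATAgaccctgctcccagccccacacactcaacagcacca
*Cryaa*, chr17:31677831-31677940, strand plus: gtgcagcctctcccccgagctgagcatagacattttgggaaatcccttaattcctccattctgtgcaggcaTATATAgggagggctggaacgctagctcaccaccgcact

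In the 6 γ-crystallin promoters TATATA, a form of the TATA box that positions RNA polymerase II, began 18 to 39 bases before the annotated start, and TTTGTG began 54 to 77 bases before it. In *Cryaa* TATATA began 29 bases before the start. *Crygd* and *Crygf* were most alike over this window, with 89.4% identity in a global alignment, and *Cryga* and *Cryge* least alike at 55.1%. Searched on both strands over the full windows of 300 bases, TATATA was present in 8 of the 15 crystallin promoters with an entry, including *Crygn*, and in 5.67% of all 32851 promoters in the table. The consensus TATAAA was present in 4 (*Cryba1*, *Cryba2*, *Crybb1* and *Crygs*) beside 13.6% of all promoters, and TTTGTG in 8 beside 17.7%. TGCTGA, the core of the element bound by large Maf factors, was present in 10 beside 19.5%. A match to these letters is a description of the window and was not tested as a binding site.

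Genes of fiber membranes, junctions and filaments had the highest median among the lens lists after the crystallins. Of its 18 members 17 were detected, all 17 at 1 FPKM or more in both libraries, and the list median was 149 FPKM. After *Mip* and *Bfsp1* came *Grifin*, a galectin-related protein, at 1241 and 1314 FPKM, *Hspb1*, a small heat shock protein, at 924 and 1187 FPKM, and *Lctl*, a klotho-family protein, at 342 and 379 FPKM. *Bfsp2* was far below *Bfsp1*, at 108 and 116 FPKM (rank 162), and was picked out after the values were seen. This is its level on the FVB/N background, and which *Bfsp2* allele these mice carry was not examined. At the lower end *Ank2*, which encodes the membrane adaptor ankyrin-B, was at 12.8 and 13.0 FPKM and *Epha2*, the receptor tyrosine kinase that aligns fiber cells, at 10.7 and 10.7 FPKM.

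*Lim2*, which encodes the abundant fiber membrane protein MP20, was the exception and was listed at 0 in both libraries. A count of 0 allows at most 3 reads, or 0.175 and 0.184 FPKM. In the deposited annotation (mm39) *Lim2* lies at chr7:43079512-43085420 on the plus strand, and all but its last 5 bases fall inside *Gm52993* (chr7:43077094-43085415, same strand), which was at 6.65 and 5.97 FPKM. Over the numbered and sex chromosomes, apart from olfactory and vomeronasal receptors, 166 of 351 protein-coding genes that lie within another protein-coding gene on the same strand had no read in either library (47.3%), beside 25.7% of the genes that do not. How reads in overlapping genes were handled is not given in the sources used here, so the level of *Lim2* cannot be read from the table. The part of the overlap in the value of *Lim2* was not tested. *Gm52993* was looked up after the values were seen.

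Genes of organelle loss and cell cycle exit in differentiating fibers were also well represented. All 12 members were at 1 FPKM or more in both libraries, with a median of 62.4 FPKM. *Tdrd7*, a component of RNA granules, was at 504 and 566 FPKM (rank 39). *Hsf4*, the heat shock factor of fiber differentiation, was at 135 and 153 FPKM, and *Cdkn1c*, the cyclin-dependent kinase inhibitor p57, at 122 and 130.4 FPKM. *Dnase2b*, the nuclease that degrades fiber DNA, was at 68.6 and 79.0 FPKM, and *Plaat3*, the phospholipase that breaks down fiber organelles, at 67.7 and 72.8 FPKM. The lowest members were *Bnip3*, a mitophagy receptor, at 11.7 and 12.5 FPKM, the cell cycle inhibitor *Cdkn1b* at 4.94 and 4.59 FPKM and *Fyco1*, an autophagosome transport adaptor, at 2.72 and 2.78 FPKM.

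Of 1525 genes annotated as transcription factors 1037 were detected, and they held 1.25% and 1.21% of the reads. Their median was 0.766 FPKM, and 37 reached a mean of 10 FPKM. The 10 highest began with 2 cold-shock-domain genes, *Ybx1* (219 and 247 FPKM) and *Carhsp1* (154 and 162 FPKM), which bind RNA as well as DNA. *Hsf4* and *Foxe3* came next, followed by *Maf* at 54.9 and 62.1 FPKM, a basic leucine zipper factor that activates crystallin genes, and the stress factor *Atf4* at 57.4 and 58.8 FPKM. *Zfp385a* (54.5 and 55.6 FPKM), *Pitx3* (48.6 and 49.5 FPKM), *Ybx3* (42.4 and 43.5 FPKM) and *Prox1* (39.3 and 43.6 FPKM) completed the 10. *Pitx3* and *Prox1* are homeobox-type regulators of lens growth and fiber elongation.

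All 17 members of the lens transcription factor list were detected, 15 of them at 1 FPKM or more in both libraries, and the list median was 7.07 FPKM. *Meis1* was at 0.615 and 0.587 FPKM and *Gata3*, which acts in fiber cell cycle exit, at 1.12 and 1.15 FPKM. *Otx2*, a regulator of retina and pigment epithelium, had 2 and 2 reads. Of the homeobox genes 50 of 225 were detected, and of the *Pax* genes 2 of 9, whereas 48 of 48 ZBTB genes and 480 of 609 C2H2 zinc finger genes were. Within the *Pax* family *Pax6* had 1633 and 1426 reads and *Pax4* had 16 and 12. Of the 39 *Hox* genes 1, *Hoxa4*, was detected, with 2 reads in each library. *Hmx1* was the homeobox gene next to *Pitx3* in level, at 38.5 and 40.1 FPKM, and was picked out after the values were seen.

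Genes of the lens epithelium were lower than those of fibers. All 10 members were detected with a median of 10.5 FPKM, and in bulk RNA fewer cells of a type and less RNA per cell cannot be told apart. *Clu*, which encodes the secreted chaperone clusterin, was highest at 443 and 430.0 FPKM, followed by *Dkk3*, a Dickkopf-family secreted protein, at 432 and 411 FPKM and by *Sparc*, a matricellular protein, at 260.2 and 238 FPKM. The water channel *Aqp1* was at 12.1 and 9.58 FPKM and *Cdh1*, which encodes E-cadherin, at 12.1 and 8.25 FPKM. *Pdgfra*, the receptor for PDGF-A in epithelial growth, was at 5.86 and 5.32 FPKM, *Gja1*, connexin 43, at 4.07 and 3.81 FPKM, and *Tfap2a*, an AP-2 factor, at 2.41 and 3.11 FPKM. The other PDGF receptor gene, *Pdgfrb*, was at 2.25 and 1.79 FPKM (240 and 181 reads), and *S100a4*, whose promoter drives the cre, was at 2.91 and 1.21 FPKM (33 and 13 reads).

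The capsule was represented by a strong type IV collagen signal. All 19 members of the capsule list were detected, with a median of 8.95 FPKM. The chains *Col4a1* (289 and 242 FPKM) and *Col4a2* (233 and 184 FPKM), which assemble into the common collagen IV network, were the highest with *Sparc*. *Nid1*, the linker nidogen-1, was at 109.5 and 108 FPKM, and *Hspg2*, the proteoglycan perlecan, at 45.7 and 33.3 FPKM. The lowest were the laminin chain *Lama2* (1.48 and 1.72 FPKM), *Nid2* (0.487 and 0.388 FPKM) and *Fn1*, which encodes fibronectin, at 0.317 and 0.172 FPKM. Of the fibrillar collagen genes of stroma, *Col1a1* was at 0.0470 and 0.0744 FPKM, *Col3a1* at 0.0733 and 0.111 FPKM and *Col1a2* at 0.679 and 0.537 FPKM, all below the median of the detected genes.

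Among 14 lens transport genes, all detected with a median of 1.46 FPKM, the glucose transporter *Slc2a1* was highest at 53.6 and 52.6 FPKM. The Na,K-ATPase subunit *Atp1b3* (47.6 and 41.6 FPKM) and the water channels *Aqp1* and *Aqp5* (9.06 and 11.1 FPKM) were lower. *Slc7a11*, the cystine transporter, was at 0.521 and 0.417 FPKM, whereas the ion channel *Trpv1* (3 and 3 reads) and the glucose transporter *Slc2a3* (1 and 7 reads) were near the limit of detection. The 14 antioxidant genes were all detected, with a median of 15.7 FPKM. They were led by the peroxiredoxin *Prdx1* (65.7 and 69.5 FPKM), the lipid peroxide reductase *Gpx4* (61.9 and 64.2 FPKM) and glutathione synthetase *Gss* (43.1 and 47.6 FPKM). *Gclc*, the catalytic subunit of the enzyme that limits glutathione synthesis, was at 20.4 and 23.8 FPKM, and catalase (*Cat*) at 17.9 and 21.6 FPKM. The peroxiredoxin *Prdx6* was at 5.33 and 5.42 FPKM. *Gsr*, glutathione reductase, was at 2.63 and 2.56 FPKM and *Glrx*, a glutaredoxin, had 9 and 9 reads.

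Proliferation genes were present at low levels. All 16 were detected, their median was 1.23 FPKM, and the cyclins *Ccnd1* (10.8 and 8.21 FPKM) and *Ccnd2* (9.24 and 7.56 FPKM) were the highest. The replication clamp *Pcna* was at 4.20 and 3.93 FPKM, and the helicase subunits *Mcm7* and *Mcm2* at 2.38 and 2.21 FPKM and at 2.08 and 1.80 FPKM. The mitotic kinase genes *Aurkb* (48 and 21 reads) and *Cdk1* (53 and 35 reads) and the mitotic cyclin *Ccnb1* (33 and 28 reads) were lowest.

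**Figure D3:**
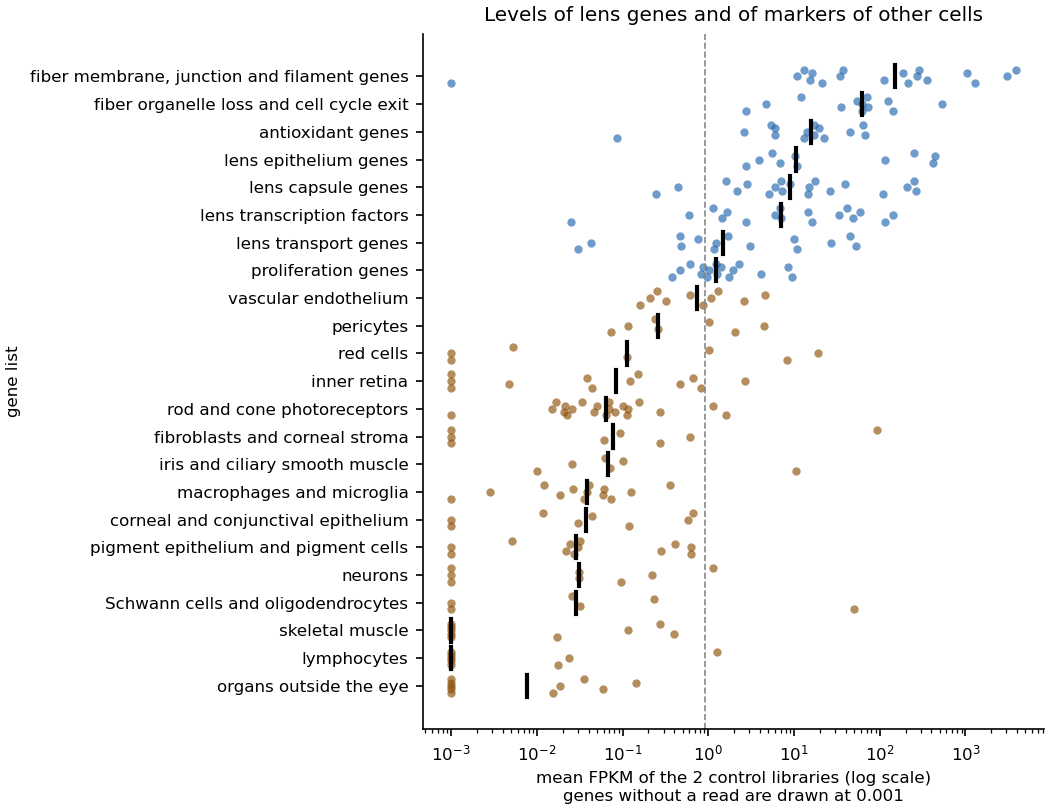
Mean FPKM of each member of 8 lens lists (blue) and 15 lists of other cells and organs (brown) on a log axis, with the list median as a black tick, genes without a read drawn at 0.001, and the median of all detected genes (0.911 FPKM) as a dashed line. The medians of the lens lists lie to the right of this line and those of the other lists to its left, with *Ogn* (mean 93.5 FPKM) and *Pmp22* (mean 50.5 FPKM) as the highest members of those other lists.

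Markers of cells next to the lens and of other organs were scarce. Of the 145 marker genes on 15 lists, 34 had no read in either library, 127 lay below the median of all genes detected, and their median was 0.0439 FPKM. Together they held 0.0602% and 0.0569% of the reads, and 4 of them reached a mean of 10 FPKM. These were *Ogn*, a small leucine-rich proteoglycan of stroma, at 85.0 and 102 FPKM, *Pmp22*, a myelin and junction protein, at 53.2 and 47.8 FPKM, *Hba-a1*, a globin gene, at 21.7 and 16.1 FPKM, and *Acta2*, smooth muscle actin, at 9.79 and 11.2 FPKM. *Hbb-bs*, another globin gene, was at 12.1 and 4.38 FPKM. The other members of the lists that hold *Ogn*, *Pmp22* and *Acta2* lay below the median of the detected genes. The stromal markers *Dcn*, *Kera* and *Lum* had no read in either library, and *Postn* was at 0.254 and 0.293 FPKM. The myelin gene *Mbp* had 0 and 10 reads, and the glial markers *Sox10* and *Mog* had none. The smooth muscle markers *Actg2*, *Des*, *Myh11*, *Tagln* and *Cnn1* had at most 14 reads in a library.

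The vascular lists had the highest medians of these 15 lists, though not the most reads. All 10 endothelial markers were detected, beside 61.8% of all protein-coding genes, with a median of 0.739 FPKM and 852 and 671 reads in all. The tight junction gene *Cldn5* was at 5.19 and 3.87 FPKM, *Egfl7* at 2.93 and 2.27, the receptor *Tek* at 1.15 and 1.47, *Cdh5*, VE-cadherin, at 1.26 and 0.903, and *Esam* at 0.861 and 0.870 FPKM. *Tie1* (56 and 58 reads), *Pecam1* (53 and 24), *Flt1* (82 and 47), *Kdr* (37 and 35) and *Emcn* (21 and 12) completed the list. All 7 pericyte markers were detected too, with a median of 0.261 FPKM, led by *Rgs5* (4.60 and 4.30 FPKM), *Pdgfrb* and the receptor *Notch3* (0.935 and 1.09 FPKM). *Abcc9* had 46 and 37 reads, *Anpep* 24 and 14, *Kcnj8* 5 and 6 and *Cspg4* 23 and 10. Red cell genes gave 542 and 323 reads, nearly all from *Hba-a1* and *Hbb-bs*, beside 14 and 13 reads of *Hbb-bt* and 3 and 7 of *Alas2*. *Slc4a1* had 1 and 0 reads, and *Hba-a2* was also listed at 0 but shares 92.6% of its 31-base words with *Hba-a1*.

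Neural and pigment cell lists had lower medians, between 0.0286 and 0.0828 FPKM. The 21 photoreceptor markers had 580 and 414 reads, of which 380 and 349 were from the lipid transporter *Abca4* and 42 and 23 from *Rom1*. The 19 others had 158 and 42 reads in all. Among them the cone transducin subunit *Gnat2* had 6 and 7 reads and *Rcvrn* had 0 and 6, and the lowest by FPKM were *Opn1mw* (1 and 0), *Rp1* (5 and 2) and *Cnga1* (0 and 0). The retina of these mice on the FVB/N background was not examined, so photoreceptor reads do not measure how much retina was carried along. Inner retina markers had 584 and 499 reads, and the members included *Glul* (2.80 and 2.51 FPKM), *Trpm1* (0.896 and 0.750), *Slc6a9* (0.440 and 0.496) and *Rbpms* (0.149 and 0.149), and *Slc17a6*, *Pou4f2* and *Slc32a1* had no read. The 12 pigment cell markers had 116 and 127 reads, led by *Oca2* (55 and 40), *Tyrp1* (29 and 38), *Pmel* (12 and 23), *Rdh5* (15 and 15) and *Dct* (0 and 7), with *Lrat* at 0 and 1 and *Tyr* and *Rpe65* at 0. The 8 corneal and conjunctival keratin and enzyme genes had 54 and 56 reads, mostly from *Krt4* and *Aldh3a1*, with *Krt12* at 0 and 3, *Krt5* at 1 and 0 and *Krt14* and *Trp63* at 0. Neuronal markers had 90 and 70 reads, led by *Tubb3* (45 and 36) and *Rbfox3* (23 and 26), and *Nefl*, *Stmn2* and *Gap43* had none.

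Blood-borne and distant cell types were close to absent from the counts. The 13 macrophage and microglia markers had 29 and 29 reads in all, with 9 and 5 for *C1qa*, 4 and 2 for *Cd68*, 2 and 0 for the leukocyte antigen *Ptprc* and none for *Adgre1*. The 8 lymphocyte markers had 22 and 25 reads, of which 18 and 25 were from *Nkg7*, and 5 had none in either library. The 9 skeletal muscle markers had 25 and 35 reads, led by *Actn3* (9 and 21), and the 10 genes of organs outside the eye had 18 and 6, with *Alb*, *Apob*, *Apoa1*, *Sftpc* and *Cyp3a11* at 0. Families that serve other tissues were mostly not detected, since 7 of 1195 olfactory receptors, 5 of 356 vomeronasal receptors and 1 of 57 keratin-associated proteins were detected in both libraries. By FPKM the highest olfactory receptor was *Olfr1366*, with 7 and 12 reads.

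Housekeeping classes held small shares beside the crystallins. Of 84 cytosolic ribosomal protein genes 81 were detected with a median of 108 FPKM, and they held 2.05% and 1.93% of the reads. *Rplp1* led at 1065 and 1065 FPKM, followed by *Rpl41* at 878 and 714 FPKM. The 13 protein-coding genes of the mitochondrial genome held 0.790% and 0.837% of the reads, led by *mt-Co1* (1779 and 2001 FPKM), *mt-Cytb* (1419.9 and 1534 FPKM) and *mt-Nd1* (871 and 959.7 FPKM), which encode subunits of the respiratory chain. Of 65 replication-dependent histone genes 22 were detected, with 2950 and 3105 reads in all, and *H2bu2* was highest at 54.4 and 66.4 FPKM. Poly(A) RNA was sequenced, and how much of the histone mRNA this selection captured was not examined. Outside these classes the first 30 ranks held *Fabp5*, a fatty acid-binding protein, at 1534 and 1589 FPKM, *Cd24a*, a small surface glycoprotein, at 1222 and 1386 FPKM, and the translation factor *Eef1a1* at 1091 and 1162 FPKM.

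Genes often used as references in expression work spread over a wide range. All 10 on the list were detected, with a median of 8.56 FPKM. Below *Eef1a1*, *Actb* was at 208 and 233 FPKM, *Ppia* at 199 and 216, *Ywhaz* at 21.4 and 21.8, *Hprt* at 9.73 and 10.8, *B2m* at 5.26 and 6.43 and *Tbp* at 0.288 and 0.380 FPKM. *Gapdh*, a glycolytic enzyme gene, was low and uneven at 6.18 and 1.68 FPKM (497 and 128 reads). The processed pseudogene *Gm13394*, which shares 96.8% of its 31-base words with *Gapdh* transcripts, had 3853 and 6740 reads, and the sum of both was 4350 and 6868 reads. Of the words of *Gapdh* itself 27.2% are shared with other genes. The table gives no usable level of *Gapdh* mRNA in these lenses, since reads of the gene and of its copies may be split between them.

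The same sharing touched the leading processed pseudogenes. *Gm6166*, the highest at 4879 and 4451 FPKM (rank 17), shares 68.6% of its 31-base words with *Fabp5*, and *Gm14328* (527 and 857 FPKM) shares 42.6%. *Rpl34-ps1* had 4038 and 4091 reads, whereas *Rpl34*, which contains 80.9% of its words, had 86 and 66. *Gm12191* had 3228 and 2891 reads beside 109 and 126 for *Rpl30*, which contains 90.3% of its words. The pseudogene thus held most of the reads in the *Gapdh*, *Rpl34* and *Rpl30* pairs, and the gene held most of them in the *Fabp5* pairs. These levels are uncertain for both members of each pair, to a degree that was not measured. *Fabp5* itself shares 9.21% of its words with other genes.

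Among long non-coding RNAs *Malat1*, a nuclear RNA of most cell types, was highest at 413 and 353 FPKM. *Gm10076* (67.9 and 132 FPKM) shares 82.2% of its words with *Rpl41*. *Gm49263* was at 54.4 and 76.0 FPKM, the unnamed gene ENSMUSG00000120875 at 60.4 and 65.7 FPKM and *Prox1os*, which is named as the opposite-strand transcript of *Prox1*, at 52.6 and 55.3 FPKM. Whether the counting used strand is not given in the sources used here, so reads of *Prox1* and *Prox1os* cannot be told apart where they overlap. The highest TEC genes were *Gm43377* (5.31 and 5.72 FPKM), *Gm43718* (4.04 and 4.41), *4930442P19Rik* (2.20 and 3.24), *2210009P08Rik* (2.99 and 1.75) and *Gm43980* (1.60 and 1.92 FPKM). *Gm43377* (same strand) and *4930442P19Rik* (opposite strand) lie within the bounds of *Hmx1*, so their reads may not be separable from those of *Hmx1*.

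The 2 control libraries agreed closely at all but the lowest levels. Recovered reads summed to 18561682 and 18679817. Across the 17346 genes detected, Pearson's r of log2(FPKM + 0.1) was 0.982 and Spearman's rho was 0.973, as descriptions over genes, which are not independent replicates. Of genes with 50 or more reads summed over both libraries, 68.9% differed by no more than 1.2-fold and 148 of 11062 (1.34%) differed by 2-fold or more, 90 higher in library 1 and 58 higher in library 2. The SD of the log2 ratio over these genes was 0.32. Genes with 10000 or more reads had a robust SD of 0.098 on the log2 scale, where counting error alone gives 0.021, and genes with 1000 to 10000 reads had 0.14 beside 0.068. The excess over counting error corresponds to a variation of 4.70% and 6.01% per library, in which pools, library preparation and the assignment of reads among shared sequences cannot be told apart. Genes with 20 to 100 reads had 0.66 beside 0.44, and 557 of these 3485 genes differed by 2-fold or more.

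**Figure D4:**
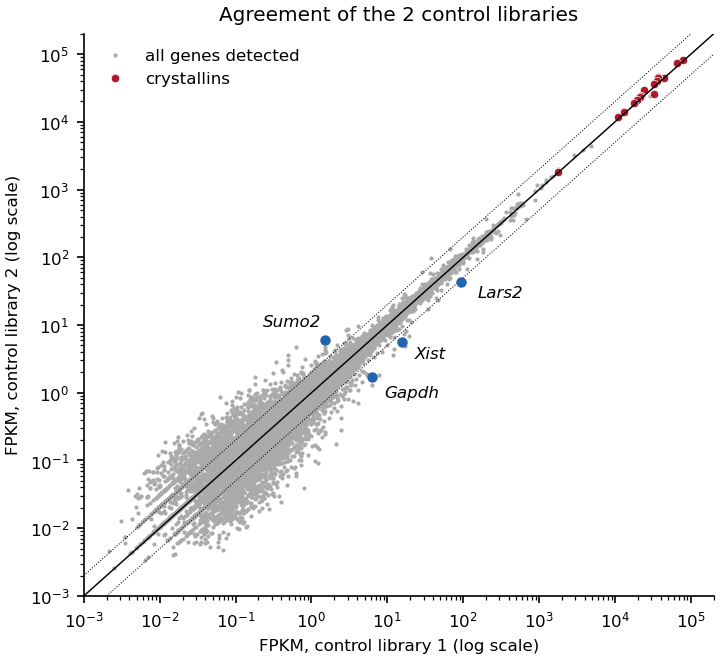
FPKM of the 17346 detected genes in control library 2 against control library 1, both axes on a log scale, with the line of equality (solid) and 2-fold lines (dotted). Crystallins (red) lie close to the line of equality, the cloud widens below 1 FPKM, and 4 genes outside the 2-fold lines are named.

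Most genes detected in 1 library only had few reads. Library 1 had 2555 and library 2 had 2022 genes with reads in that library alone, and 85.7% of these had at most 3 reads. The exception with the most reads was *S100a3*, with 565 and 0 reads (10.9 and 0 FPKM). It lies at chr3:90491966-90510009 (mm39), next to *S100a4* at chr3:90511078-90513352, and *S100a6* further along the cluster was at 125 and 120.2 FPKM. *S100a3* and *S100a6* were picked out after the values were seen.

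Among genes with 200 or more reads, those furthest above in library 1 were *Gapdh* (3.68-fold), *Xist* (2.80-fold, 5435 and 1839 reads), *Hbb-bs* (2.77-fold), *Snrpe* (2.23-fold), *Dynlt1c* (2.21-fold), *Rps19-ps6* (2.14-fold), *Madd* (2.14-fold) and *Lars2* (2.12-fold). *Lars2*, a mitochondrial leucyl-tRNA synthetase gene, stood out by its depth, with 19915 and 8907 reads. Those furthest above in library 2 were *Sumo2* (4.03-fold), *Gm14322* (2.92-fold), *Ddx3y* (2.59-fold), *Rps27rt* (2.59-fold), *Kdm5d* (2.54-fold), *Eif2s3y* (2.36-fold), *Dynlt1f* (2.18-fold) and *Ndufs5-ps* (2.13-fold). *Xist*, which is transcribed from the inactive X chromosome, and the Y-linked genes differed in opposite directions, and all of them, *Uty* (63 and 115 reads) included, were present in both pools. *Gm14322* shares 91.0% of its words with other genes, *Rps27rt* 92.7%, *Dynlt1f* 92.7% and *Dynlt1c* 86.5%, so their ratios are uncertain.

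*Crygd*, *Cryge* and *Crygf*, which share sequence, differed in opposite directions between the libraries. *Cryge* was 1.26-fold higher in library 1, and *Crygd* and *Crygf* were 1.24-fold and 1.25-fold higher in library 2. *Cryge* shares 57.5% of its 31-base words with other genes, mainly *Crygf* and *Crygd*. Summed over *Crygd*, *Cryge* and *Crygf* the reads were 1469374 and 1538584, a ratio of 1.05 (1.09 by summed FPKM). Over all 6 clustered genes the ratio was 1.01 (1.05 by summed FPKM). With shared words the single values of *Crygd*, *Cryge* and *Crygf* are less certain than their sum. The part of shared sequence in their differences between libraries was not tested.

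Lens lists leaned in different directions between the pools, at sizes well under 2-fold. Over all genes with 50 or more reads 49.2% were higher in library 1. Of the capsule genes 18 of 19 were higher in library 1, with a median ratio of 0.819 (library 2 over library 1) and *Lama2* as the exception, and 0 of 19 differed by 2-fold or more. *Hspg2* was 1.37-fold and *Col4a2* 1.27-fold higher in library 1. Proliferation genes were higher in library 1 for 15 of 16, with a median ratio of 0.879, and epithelium genes for 8 of 10, with a median ratio of 0.929. Transport genes with enough reads were higher in library 1 for 10 of 12, with a median ratio of 0.873. The members of these 4 lists past 2-fold were *Atp1b2* (54 and 21 reads) and *Aurkb* (48 and 21 reads), both at low counts.

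Fiber genes leaned the other way by FPKM. Of the crystallins 14 of 16 were higher in library 2. The fiber membrane, junction and filament genes were higher in library 1 for 3 of 17, with a median ratio of 1.08. The depth that FPKM was divided by was 1.05 and 0.987 times the recovered reads, so an equal share of reads gives a higher FPKM in library 2. By share of reads the fiber membrane list held 2.45% and 2.46%, and the organelle loss list 0.490% and 0.519%. *Crygb*, *Crygc*, *Cryge*, *Cryga* and *Crygn* held a smaller share of reads in library 2. Organelle loss genes were higher in library 1 for 2 of 12, with a median ratio of 1.08, antioxidant genes for 3 of 13 and lens transcription factors for 5 of 16. Library 1 also had more reads of 18S ribosomal RNA (1041620 and 809817), rod and cone markers (158 and 42, without *Abca4* and *Rom1*) and red cell genes (542 and 323). Crystallins took 59.0% of the reads in library 1 and 61.5% in library 2, which left 41.0% and 38.5% for all other genes. The 95% Wilson intervals of these shares, which cover counting error only, reach 0.0224 and 0.0221 percentage points to either side. Members of a list share their cells, the lists overlap, and the part of dissection, of the mice pooled or of library composition in these leanings was not tested.

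**Figure D5:**
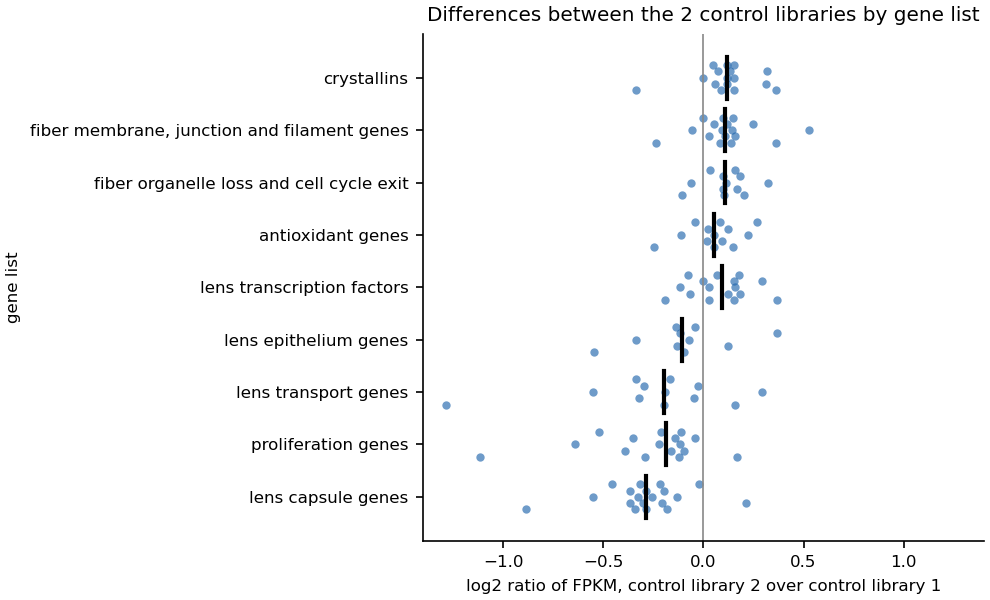
Log2 ratio of FPKM, control library 2 over control library 1, for members with 50 or more reads of the crystallins and 8 other lens lists, with list medians as black ticks and equality as a gray line. The medians of crystallin, fiber, antioxidant and transcription factor lists lie to the right of equality, and those of the epithelium, transport, proliferation and capsule lists to its left.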

How the data were processed

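Lenses of 10 to 12 day old mice were dissected in PBS, frozen and pooled, and poly(A) RNA was sequenced. According to the methods and the submitters' processing notes, reads were aligned with Hisat2 and counted per gene with featureCounts, and gene positions are those of mm39. The authors deposited FPKM for 56748 genes in 4 libraries. The 2 mutant libraries were not analysed here, and 0 per-sample columns lacked a sample. Each FPKM was multiplied by the deposited gene length and divided by the smallest such product in its library, which gave whole reads for 100% of values within 0.01 and depths of 18561682 and 18679817 reads. Shares are of these reads unless FPKM is named. Ranks and medians use the mean FPKM of both libraries. Whether the deposited gene length is that of the transcripts made in lens was not examined. No test was made, because there is 1 group. Ratios between libraries were of FPKM unless reads are named, and used genes with at least 50 reads in all. The spread estimate was checked on simulated reads.

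The members and gene lists were chosen with earlier results of these data known. Genes were named by a rule: the 5 label markers, the 30 highest genes of at least 200 bp, all members of lists of up to 10 genes and otherwise the 5 highest and 3 lowest, the 5 highest of each large biotype, the 10 highest transcription factors, the 8 genes furthest apart between libraries in each direction, and families by symbol. Exceptions are marked in the text. Further members of some lists of other cells are given as sums, and some listed genes are not reported here. Words of 31 bases were compared between GENCODE M21 transcripts. Promoters (RefSeq, GRCm38.p6) matched 15 of 16 crystallin genes by symbol. Floors of 3 reads and Wilson intervals (95%) cover counting error only. Alternatives were other detection limits, FPKM shares, TPM, other pseudocounts, a median-ratio rescaling and leaving out each library. Python 3.11.15, pandas 2.3.3, numpy 2.4.6, scipy 1.17.1 and matplotlib 3.10.9 were used.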

Additional observations from a re-analysis of the deposited data

How the results depend on the processing

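No paired analysis was possible because the results come from 1 group and no test. A limit of 1 FPKM in both libraries lowered the genes detected from 17346 to 7965 and the protein-coding genes to 7283. Long non-coding RNA genes fell from 1933 to 1141 at 0.1 FPKM, to 571 at 10 reads and to 204 at 1 FPKM. As a share of summed FPKM the crystallins took 77.6% rather than 60.3% of the reads. TPM, which rescales each library to a fixed sum, multiplied all levels by 1.55 and 1.46, which gave medians of 224 for fiber membrane, 15.9 for epithelium, 13.5 for capsule, 10.6 for transcription factor and 1.85 for proliferation genes and left their order as it was. With members of at least 0.1 FPKM in both libraries the fiber membrane median was 186 and the transcription factor median 10.7 FPKM, which then lay above the epithelium median of 10.5. Without 1 library or the other the transcription factor median was 7.07 or 7.18 FPKM. Pearson's r was 0.970 with a pseudocount of 0.01 and 0.992 with 1. The share past 2-fold was 4.58% at 20 reads and 0.249% at 200 reads, and 7.30% were past 1.5-fold. A robust SD of the log2 ratio, added after the data were seen, was 0.24. Of 78 alternatives 25 moved a value by more than the spread between libraries, by over 0.01 in a correlation or SD, or by over 1.5 times in a count. The agreement of the libraries has no value without 1 of them. Depth limits genes under 50 reads, which were 36.2% of those detected.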
